A study of Mus musculus with 8 samples.

Results

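The Wnt ligands, their receptors and coreceptors, the secreted Wnt antagonists and the first intracellular components of the pathway were followed in mouse tendon stem cells (TSCs). The genes were chosen by symbol from the deposited table, as the families Wnt, Fzd, Sfrp, Dkk, Rspo and Tcf7 together with Lgr4, Lgr5, Lgr6, Lrp5, Lrp6, Frzb, Wif1, Axin1, Axin2, Lef1, Znrf3, Rnf43, Ror1 and Ror2. This gave 58 of the 19301 genes in the table. The rule itself reads symbols and no expression value, but it was set with earlier results of these data known.

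Wnt proteins are secreted, lipid-modified ligands that bind Frizzled receptors together with Lrp5 or Lrp6, which spares beta-catenin from degradation and lets it act with Tcf/Lef factors in the nucleus. Ligands such as Wnt5a, Wnt5b and Wnt11 also signal through Ror2 without beta-catenin. R-spondins bind Lgr receptors and keep Frizzled proteins at the cell surface by blocking the ubiquitin ligases Znrf3 and Rnf43. Secreted antagonists act outside the cell: Sfrp proteins, Frzb and Wif1 bind Wnt proteins themselves, while Dkk1 and Dkk2 bind Lrp5 and Lrp6. In tendon and bone this pathway is known for its part in the choice between tendon, cartilage and bone cell fates.

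The cells were primary TSCs taken from mouse patellar tendon by collagenase digestion and cultured for 4 days in one of 2 media. The HFHG group received high glucose medium with palmitic acid, a saturated fatty acid, and the LG group received low glucose medium (5.5 mM glucose) with the solvent DMSO. Each group had 4 libraries, described as biological replicates, and whether they came from separate mice is not given in the sources used here. Glucose and palmitic acid were changed together, so their effects cannot be told apart.

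The deposited unit was FPKM, a fragment count scaled by gene length and library total, and the reads behind each value were recovered. The library totals behind the FPKM were 35385644 to 37362725 reads in HFHG and 34308108 to 36308533 in LG. From 99.82% to 99.85% of each total lay on the genes listed, so the number of reads sequenced is not known from them. The first principal component separated the groups and the second set LG replicate 4 apart from the other libraries, so counts are also given without it. The tendon markers Col1a1, Thbs4 and Tnc were abundant. In HFHG, 8 of 10 tendon markers (summed level 2712 to 2757 against 1716 to 1757 FPKM) and 6 of 7 mesenchymal stem cell markers (1161 to 1188 against 744 to 775) were higher. Over all tested genes, 34.0% were higher and 30.8% lower. The defining tendon genes Scx and Tnmd were low (2.27 and 1.10 FPKM in HFHG, 1.45 and 0.614 in LG). Both were called higher in HFHG by limma (log2 fold change 0.61 ± 0.19 and 0.86 ± 0.28, adjusted p = 0.014 and 0.016). By qPCR, the study instead reported lower Scx and Tnmd in HFHG medium and no significant change of Mkx. The cause of this difference was not tested. Mkx, another tendon marker, was lower in HFHG (6.73 against 8.62 FPKM, log2 fold change -0.35 ± 0.07), as was Cd44 of the mesenchymal list. Macrophage markers were also present, with Lyz2 at 1637 FPKM in HFHG and 1765 in LG, Adgre1 at 26.5 and 38.0, and Cd163 near 0 (0.0231 and 0.0252). Their summed level ranged from 1711 to 1762 FPKM in HFHG and from 1875 to 1955 in LG. Of the 8 tested macrophage markers, 7 were lower in HFHG, beside 30.8% of all tested genes. Lyz2, which makes up most of that sum, lost its call and changed sign after quantile normalization (log2 fold change 0.0062, adjusted p = 0.64), and Csf1r lost its call under 7 alternatives. The part of these cell types in the results below was not tested. Of 6 osteoblast markers, Runx2 passed the filter (4.73 FPKM in HFHG and 4.07 in LG, higher at an adjusted p of 0.0057 but not called after quantile normalization), and Sp7, Bglap, Alpl, Ibsp and Dmp1 averaged 0.387 FPKM or less in both groups. In bulk RNA, more cells of a type and more RNA per cell cannot be told apart.

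Promoter sequences of the RefSeq annotation (build GRCm38.p6, from 250 bases before to 50 bases after a transcription start) were at hand for 39 of the 58 genes, among them 4 of the 8 that differed more than 2-fold. The 4 windows below belong to those 4 genes, 3 antagonists and 1 ligand that were higher in HFHG. For Wnt5b, 1 of 3 windows is shown. They are written 5′ to 3′ on the strand of the gene, and capitals mark the letters CTTTGAT (a core of the site that Tcf/Lef factors bind) or TATAAA (the TATA box).
Dkk2, chr3:132085042-132085341, plus strand: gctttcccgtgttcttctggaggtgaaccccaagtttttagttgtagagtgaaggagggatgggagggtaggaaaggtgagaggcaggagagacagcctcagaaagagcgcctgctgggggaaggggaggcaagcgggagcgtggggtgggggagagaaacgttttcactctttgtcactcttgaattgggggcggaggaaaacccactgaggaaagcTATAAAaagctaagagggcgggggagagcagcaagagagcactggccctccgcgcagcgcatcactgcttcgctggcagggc
Sfrp2, chr3:83766071-83766370, plus strand: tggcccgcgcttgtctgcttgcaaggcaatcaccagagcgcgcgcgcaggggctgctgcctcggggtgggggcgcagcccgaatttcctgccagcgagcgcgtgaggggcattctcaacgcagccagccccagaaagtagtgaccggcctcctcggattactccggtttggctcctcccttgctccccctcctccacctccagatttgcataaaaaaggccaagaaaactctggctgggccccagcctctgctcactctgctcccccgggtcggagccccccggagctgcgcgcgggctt
Frzb, chr2:80447347-80447646, minus strand: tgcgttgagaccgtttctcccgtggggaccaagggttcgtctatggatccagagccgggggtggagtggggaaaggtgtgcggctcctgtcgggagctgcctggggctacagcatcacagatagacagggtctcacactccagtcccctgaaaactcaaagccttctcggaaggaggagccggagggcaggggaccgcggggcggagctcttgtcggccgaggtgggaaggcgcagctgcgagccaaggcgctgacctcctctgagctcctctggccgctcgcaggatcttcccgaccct
Wnt5b, chr6:119449337-119449636, minus strand: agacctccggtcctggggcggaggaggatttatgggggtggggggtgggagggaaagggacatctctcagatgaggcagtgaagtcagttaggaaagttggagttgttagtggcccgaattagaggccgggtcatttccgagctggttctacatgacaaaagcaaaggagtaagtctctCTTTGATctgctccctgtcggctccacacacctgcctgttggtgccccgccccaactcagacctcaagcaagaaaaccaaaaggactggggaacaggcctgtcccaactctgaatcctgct

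The Dkk2 window holds TATAAA 32 bases before the start, and the Wnt5b window, which is 1 of 3 RefSeq starts of that gene, holds CTTTGAT 71 bases before it. The printed Wnt5b window is the only 1 of the 3 that holds these letters. The Tcf/Lef letters CTTTGAT or CTTTGAA, searched on both strands, were found in 3 of 48 windows of these genes (6.25%), those of Wnt5b, Wnt11 and Dkk1. Of all 32851 windows, 8.65% held them. TATAAA was found in 8 of the 48 windows (16.7%) and in 13.6% of all windows. Neither motif was found in the Sfrp2 and Frzb windows, which says only that those letters are not there.

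All 5 tested secreted antagonists were higher in HFHG, beside 34.0% of all tested genes, though Frzb passed the filter, given below, through HFHG alone. Dkk2 was 8.55-fold higher in HFHG by mean FPKM, Sfrp2 6.90-fold, Sfrp1 4.67-fold, Frzb 4.08-fold and Dkk3 2.57-fold. The R-spondin Rspo2 and the R-spondin receptor Lgr5 were 10.7-fold and 7.11-fold higher by mean FPKM. Both also passed the filter through HFHG alone, from LG means of 0.166 and 0.383 FPKM, so a difference was built in. The tested Frizzled receptors, Lrp coreceptors and ligands differed by 2.09-fold or less. The recovered reads on the 58 genes came to 55487 to 57462 per library in HFHG and 28671 to 30674 in LG. Of these, Dkk2 alone held 13123 to 14464 per library in HFHG and 1506 to 1687 in LG. Longer transcripts weigh more in such a sum.

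Of the 58 genes, 26 reached an FPKM of 0.5 in at least 4 libraries and entered the test across all genes (limma on log2(FPKM + 0.1), p-values adjusted over the 11710 genes that passed). At an adjusted p-value below 0.05, 22 of the 26 were higher in HFHG, where 34.0% of all tested genes were, and 1 was lower, where 30.8% were. Both counts were the same without LG replicate 4. The median log2 fold change was 0.61 for the 26 genes and 0.02 for all tested genes. More than 2-fold higher with an unadjusted p-value below 0.05 were 8 of the 26 (Dkk2, Rspo2, Sfrp2, Lgr5, Sfrp1, Frzb, Dkk3 and Wnt5b) and 3.68% of all tested genes. The study names the same cutoffs. Here they were applied to limma on log2(FPKM + 0.1) after a filter, so its calls may differ. No tested member was more than 2-fold lower by limma, where 1.65% of the tested genes were, and the lowest log2 fold change over all alternatives was -0.35 (Znrf3). The groups did not overlap for 24 of the 26 members and for 59.2% of all tested genes. Rspo2, Lgr5 and Frzb passed the filter through HFHG alone, with each LG library below 0.5 FPKM, and so had to differ. Among the 22 members at 0.5 FPKM or more in each LG library, 18 were higher in HFHG. The share over all genes at that level in LG was not computed, so this count has no background beside it. When no filter was used, 29 of the 58 members were higher and 2 lower, beside 22.2% and 18.4% of all 19301 genes.

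**Figure D1:**
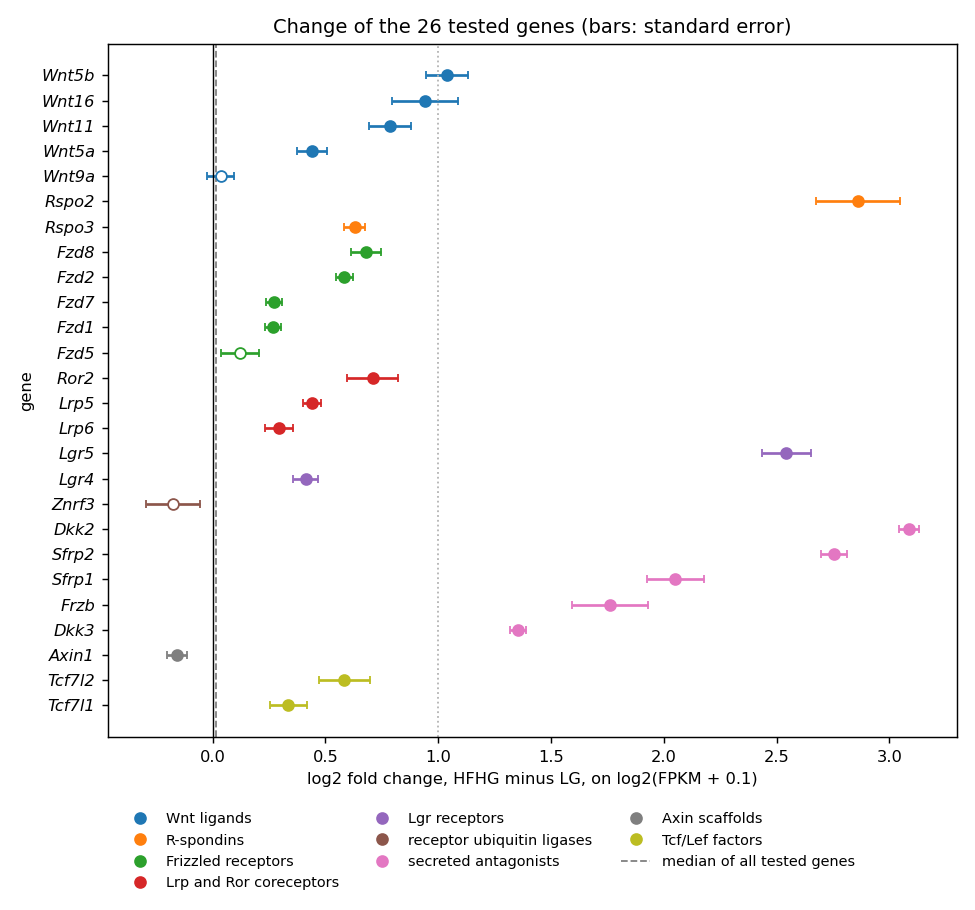
Log2 fold change of the 26 tested genes, HFHG minus LG on the log2(FPKM + 0.1) scale, coloured by role, with bars of 1 standard error. Filled circles passed an adjusted p-value of 0.05 (limma), open circles did not, the dashed line is the median of all tested genes (0.02), and the dotted line marks a 2-fold difference. The 5 antagonists, Rspo2 and Lgr5 lie between 1.35 and 3.09, and Axin1 is the only filled circle below 0.

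Among the secreted antagonists, Dkk2 (chr3:132085292-132180304, plus strand), which binds Lrp5 and Lrp6, measured 100.1, 98.4, 103 and 105 FPKM in HFHG replicates 1 to 4. In LG it measured 12.7, 12.3, 11.3 and 11.2 FPKM. The lowest HFHG library was far above the highest LG library, and the log2 fold change was 3.09 ± 0.04 (SE, adjusted p = 4.9e-14), the tenth largest of all tested genes. Dkk3 (chr7:112116017-112159057, minus strand), a relative of the Dickkopf family that is not known as a classical Lrp ligand, measured 46.3, 47.6, 47.0 and 45.7 FPKM in HFHG and 18, 19.3, 17.6 and 17.9 in LG. Its groups did not overlap either, and the log2 fold change was 1.35 ± 0.04 (adjusted p = 6.6e-12).

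Sfrp2 (chr3:83766321-83774316, plus strand), a soluble Frizzled-like protein that binds Wnt, measured 23.6, 23.6, 23.6 and 23.1 FPKM in HFHG and 3.44, 3.72, 3.43 and 3.03 in LG. Every HFHG library was above every LG library, and the log2 fold change was 2.75 ± 0.06 (adjusted p = 8.2e-13). Sfrp1 (chr8:23411502-23449632, plus strand), of the same family, measured 2.36, 2.50, 2.62 and 2.79 FPKM in HFHG and 0.630, 0.644, 0.497 and 0.426 in LG. The groups were apart, and the log2 fold change was 2.05 ± 0.13 (adjusted p = 1.8e-08), and 1.20 with a pseudocount of 1. Frzb (chr2:80411970-80447625, minus strand), also called Sfrp3, measured 1.38, 1.12, 1.37 and 1.21 FPKM in HFHG and 0.270, 0.302, 0.222 and 0.452 in LG. Its log2 fold change was 1.76 ± 0.17 (adjusted p = 1.2e-06), but 0.79 with a pseudocount of 1, so that it left the genes past 2-fold there, and it was the least abundant of the 5 tested antagonists in both media. Frzb entered the test through its HFHG libraries alone, so a difference was built in.

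The 10 antagonists together summed to 176 ± 2.44 FPKM in HFHG and 34.7 ± 1.76 in LG (SD, n = 4 each), a ratio of 5.08. Their order also differed: Dkk3 led in LG and Dkk2 led in HFHG. Dkk2 was 2.06 to 2.3 times Dkk3 in the HFHG libraries and 0.627 to 0.707 times Dkk3 in the LG libraries. As a share of the summed antagonist FPKM, Dkk2 held 34.3% ± 1.01 in LG and 57.7% ± 0.936 in HFHG (SD, n = 4 each), and Dkk3 held 52.5% ± 1.37 and 26.5% ± 0.733. Sfrp2 held 9.81% ± 0.527 and 13.3% ± 0.292. Set against the summed Wnt ligands, the antagonists came to 1.87 to 2.19 times as much FPKM in LG and 6.66 to 7.05 times in HFHG. Dkk2 alone averaged 102 FPKM in HFHG and 11.9 in LG. These sums depend on the symbols chosen. They include Dkk3, which is not known as a classical Lrp ligand, and leave out Igfbp4, described below. They are sums of RNA and do not measure a balance of protein or activity.

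**Figure D2:**
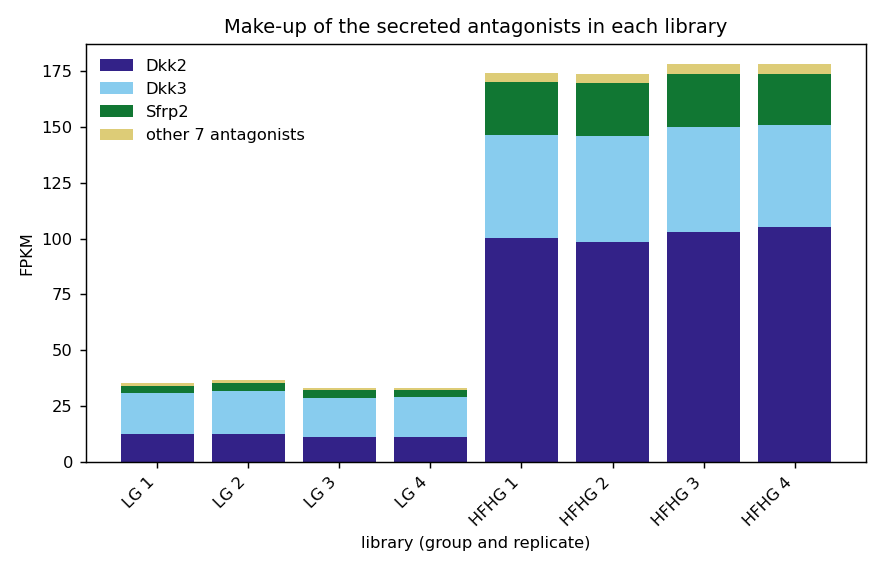
FPKM of the 10 secreted antagonists stacked for each library (horizontal axis: group and replicate), in Dkk2, Dkk3, Sfrp2 and the sum of the other 7 genes. The bars reach 33.2 to 36.7 FPKM in LG and 174 to 178 in HFHG, and Dkk2 is the largest block in HFHG while Dkk3 is the largest in LG.

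The other 5 antagonists were below the filter. Dkk1, like Dkk2 an Lrp-binding inhibitor, had 1 to 4 reads in each HFHG library and 0 in each LG library, 7 reads against 0. The exact 95% interval of the ratio, which covers counting error only, starts at 1.41-fold higher, and without a filter its limma adjusted p was 0.08. Sfrp4 averaged 0.254 FPKM in HFHG and 0.115 in LG with overlapping groups, Wif1 0.171 and 0.149. Dkk4 had 1 read in HFHG and 8 in LG, and Sfrp5 had 0 and 7.

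Of the 19 ligand genes, 5 passed the filter, and 4 of them rose in HFHG, beside 34.0% of all tested genes. Wnt11 (chr7:98835112-98855195, plus strand), known for signalling without beta-catenin, measured 7.78, 7.13, 7.24 and 6.21 FPKM in HFHG and 3.36, 4.18, 4.32 and 4.47 in LG. The groups did not overlap, and the log2 fold change was 0.79 ± 0.09 (adjusted p = 8.4e-06). Wnt5b (chr6:119432531-119544347, minus strand), of the same beta-catenin-independent kind, measured 4.68, 4.65, 4.51 and 5.14 FPKM in HFHG and 2.19, 1.90, 2.64 and 2.36 in LG. It was higher in each HFHG library, by a log2 fold change of 1.04 ± 0.09 (adjusted p = 6.3e-07). Wnt16 (chr6:22288227-22298522, plus strand), known for its effect on cortical bone, measured 2.0, 2.36, 2.13 and 2.69 FPKM in HFHG and 0.841, 1.12, 1.21 and 1.46 in LG. Its groups were also apart, and the log2 fold change was 0.94 ± 0.15 (adjusted p = 9.4e-05).

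Wnt5a, the close relative of Wnt5b, averaged 4.66 ± 0.258 FPKM in HFHG and 3.41 ± 0.190 in LG, a smaller log2 fold change of 0.44 ± 0.07 (adjusted p = 7.6e-05). Wnt9a was the most abundant ligand in LG (5.49 ± 0.221 FPKM) and measured 5.63 ± 0.320 in HFHG, with overlapping groups (log2 fold change 0.04 ± 0.06, adjusted p = 0.61). Wnt11 led the ligands in HFHG, and Wnt5a and Wnt5b lay within their spread of each other there (4.66 and 4.74 FPKM) although Wnt5a was ahead in LG (3.41 and 2.27). The summed FPKM of the 19 ligands was 25.6 ± 0.352 in HFHG and 17.1 ± 0.756 in LG.

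Several ligands known for acting through beta-catenin were scarce, which does not cover Wnt9a (5.49 FPKM in LG and 5.63 in HFHG). Wnt1, Wnt3a, Wnt8a and Wnt9b averaged 0.0148 FPKM or less in both groups, and Wnt2, Wnt3, Wnt7a, Wnt7b and Wnt10a 0.0807 or less. Wnt10b, an inducer of bone formation, had 87 reads in the 4 HFHG libraries and 32 in the 4 LG libraries, and its FPKM did not overlap between the groups (0.178 ± 0.0823 and 0.0676 ± 0.0303). Wnt3 had 7 reads and 0 reads. Wnt2b averaged 0.223 and 0.0609 FPKM with overlapping groups.

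Both tested R-spondins rose, at different scales, beside 34.0% of all tested genes. Rspo3 (chr10:29452416-29535867, minus strand) measured 27.7, 24.8, 28.8 and 27.3 FPKM in HFHG and 17.0, 17.3, 18.4 and 17.3 in LG. All HFHG libraries were above all LG libraries, and the log2 fold change was 0.63 ± 0.05 (adjusted p = 1e-07). Rspo2 (chr15:43020794-43170826, minus strand) measured 1.84, 1.62, 1.74 and 1.94 FPKM in HFHG and 0.177, 0.17, 0.242 and 0.0759 in LG. It was near absent in LG, and the log2 fold change was 2.86 ± 0.19 (adjusted p = 3e-08) and ranged from 1.26 with a pseudocount of 1 to 3.53 across the alternatives. Rspo2 entered the test through its HFHG libraries alone, so a difference was built in. Rspo3 remained the main R-spondin, at 14.1 to 16.6 times Rspo2 in HFHG and 75.9 to 227 times in LG. Rspo1 and Rspo4 averaged 0.0727 FPKM or less.

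Of the R-spondin receptors, Lgr5 (chr10:115450311-115587780, minus strand), also a stem cell marker in several epithelia, measured 2.40, 2.75, 2.69 and 3.05 FPKM in HFHG and 0.346, 0.415, 0.371 and 0.4 in LG. The groups were far apart, and the log2 fold change was 2.54 ± 0.11 (adjusted p = 5.3e-10), and 1.43 with a pseudocount of 1. Lgr5 entered the test through its HFHG libraries alone, so a difference was built in. Lgr4, the broadly expressed receptor of the family, averaged 11.5 ± 0.782 FPKM in HFHG and 8.62 ± 0.407 in LG (log2 fold change 0.41 ± 0.06, adjusted p = 2.8e-05). Lgr4 was 3.69 to 4.68 times Lgr5 in HFHG and 20.9 to 24.6 times in LG. Lgr6 was below the filter, at 0.445 ± 0.0605 and 0.526 ± 0.0882 FPKM with overlapping groups.

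Znrf3 (chr11:5276324-5444847, minus strand), the ubiquitin ligase that R-spondins block, measured 0.713, 0.705, 0.736 and 0.747 FPKM in HFHG and 0.754, 0.856, 0.755 and 0.979 in LG. Each LG library was above each HFHG library, yet the difference did not pass, and the log2 fold change was -0.18 ± 0.12 (adjusted p = 0.21, and 0.020 after quantile normalization). Its homologue Rnf43 averaged 0.0681 FPKM in HFHG and 0.0265 in LG, with overlapping groups.

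**Figure D3:**
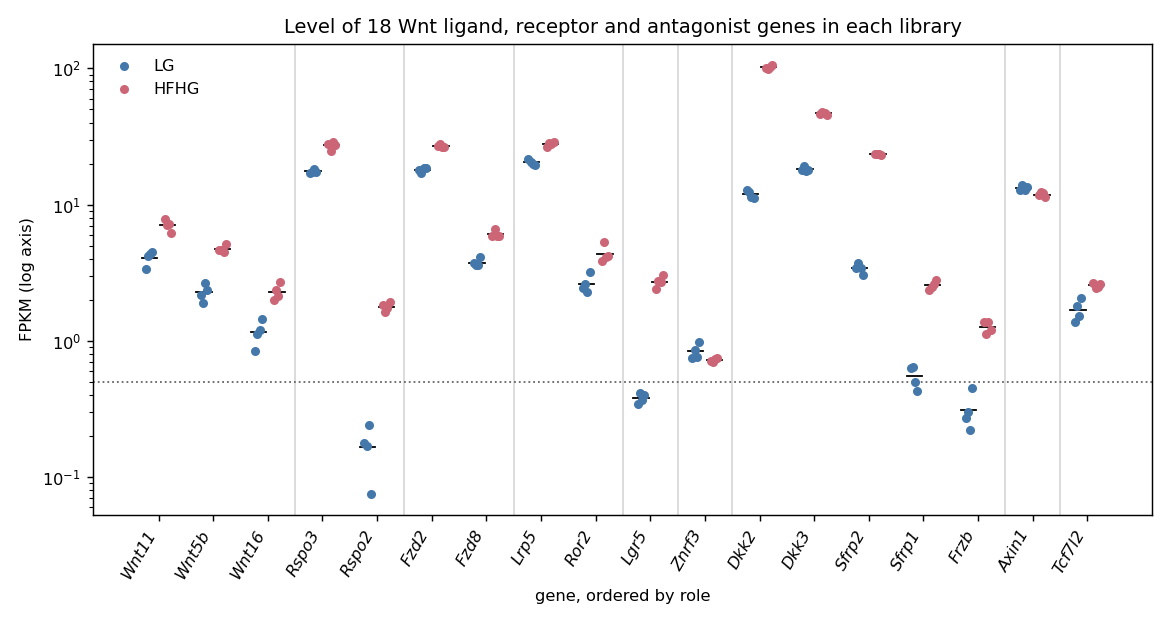
FPKM on a log axis of 18 genes in each of the 8 libraries, ordered by role and split by vertical lines, with LG in blue, HFHG in red and short bars at the group means. The dotted line is the filter of 0.5 FPKM. Rspo2, Lgr5 and Frzb lie below it in LG and above it in HFHG, and Axin1 and Znrf3 are the 2 genes with the higher mean in LG. The groups do not overlap in any of the 18, beside 59.2% of all tested genes. Most of the 18 were chosen for an adjusted p-value below 0.05 (limma) and an absolute log2 fold change of at least 0.58, so this was largely built in.

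Of the 10 Frizzled receptors, 5 were tested, and Fzd1, Fzd2, Fzd7 and Fzd8 rose in HFHG, beside 34.0% of all tested genes. Fzd2 (chr11:102604396-102608058, plus strand) measured 26.8, 28.0, 26.7 and 26.6 FPKM in HFHG and 17.8, 17.1, 18.5 and 18.6 in LG. Its groups did not overlap, and the log2 fold change was 0.58 ± 0.04 (adjusted p = 2.3e-08). Fzd8 measured 5.88, 6.66, 5.86 and 5.90 FPKM in HFHG and 3.72, 3.61, 3.58 and 4.11 in LG, and each HFHG library was higher (log2 fold change 0.68 ± 0.07, adjusted p = 1.5e-06). Fzd7 and Fzd1 differed less, with log2 fold changes of 0.27 ± 0.03 and 0.27 ± 0.04. The order of Fzd7 and Fzd2 was within their spread of replicates in LG (18.8 ± 0.172 and 18 ± 0.670 FPKM), and Fzd2 was ahead in HFHG (27.0 ± 0.668 against 22.8 ± 0.769).

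Fzd5 overlapped between the groups at 1.71 ± 0.129 and 1.56 ± 0.0484 FPKM (adjusted p = 0.23). Fzd6 and Fzd9, both below the filter, were higher in each LG library: Fzd6 had 145 reads in LG and 99 in HFHG, and Fzd9 had 58 and 24. Fzd3, Fzd4 and Fzd10 overlapped between the groups. The summed Frizzled FPKM was 76.5 ± 1.35 in HFHG and 58.1 ± 1.14 in LG.

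The 3 tested coreceptors rose, beside 34.0% of all tested genes. Lrp5 (chr19:3584828-3686564, minus strand), the Frizzled partner whose loss weakens bone, measured 26.3, 28.1, 27.7 and 28.5 FPKM in HFHG and 21.5, 20.6, 20.0 and 19.4 in LG. The groups were apart, and the log2 fold change was 0.44 ± 0.04 (adjusted p = 7.7e-07). Lrp6 averaged 11.2 ± 0.277 and 9.13 ± 0.879 FPKM (log2 fold change 0.30 ± 0.06, adjusted p = 0.0012). Ror2 (chr13:53109312-53286124, minus strand), the receptor tyrosine kinase for Wnt5a, measured 3.84, 5.32, 4.15 and 4.18 FPKM in HFHG and 2.44, 2.62, 2.3 and 3.18 in LG. Its groups did not overlap (log2 fold change 0.71 ± 0.11, adjusted p = 0.00013). Ror1 had 95 reads in HFHG and 27 in LG and was below the filter.

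**Figure D4:**
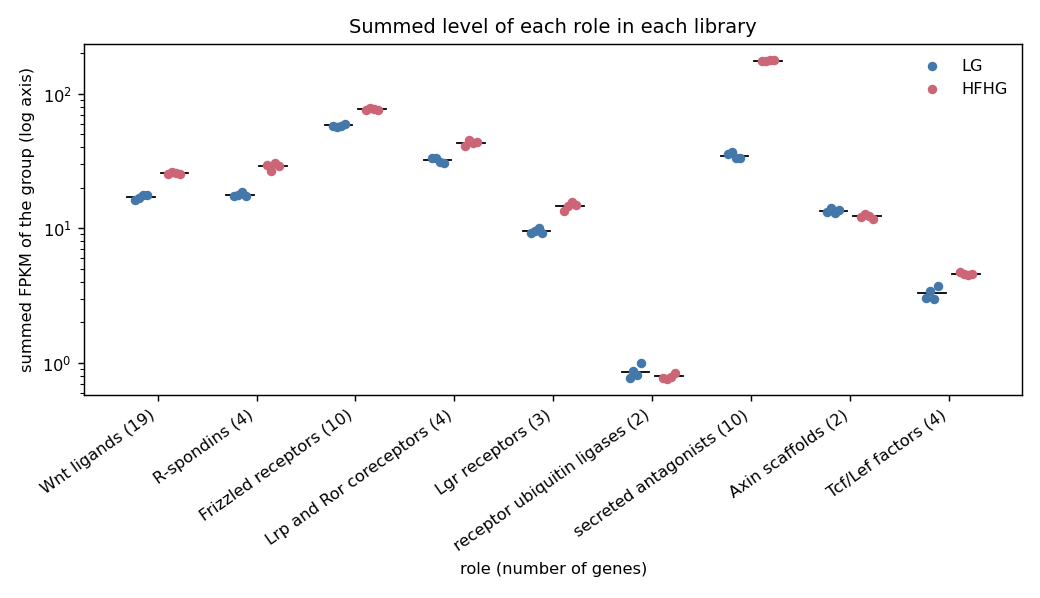
Summed FPKM of each role in each library on a log axis, LG in blue and HFHG in red, with the number of genes in brackets and bars at the group means. The antagonists move from 33.2 to 36.7 FPKM in LG to 174 to 178 in HFHG, the ligands from 16.2 to 17.8 to 25.3 to 26.1, and the ubiquitin ligases overlap.

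Inside the cell, Axin1 (chr17:26138688-26195811, plus strand), the scaffold of the complex that degrades beta-catenin, measured 11.7, 12.4, 12.1 and 11.3 FPKM in HFHG and 12.9, 13.8, 12.7 and 13.5 in LG. It was the only tested member that was lower in HFHG (log2 fold change -0.16 ± 0.04, adjusted p = 0.0075), and this call was lost when the libraries were rescaled to the same sum (adjusted p = 0.075). Its homologue Axin2, a direct target of beta-catenin and a common reporter of its activity, went the other way at a low level. Axin2 had 72, 76, 58 and 86 reads in HFHG and 41, 55, 34 and 33 in LG, or 0.401 ± 0.0634 and 0.229 ± 0.0542 FPKM. The groups did not overlap, and an exact two-sided permutation test gave p = 0.0286, the smallest that 4 against 4 libraries allow. Without a filter its limma adjusted p was 0.012.

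Among the Tcf/Lef factors, which carry beta-catenin to DNA, Tcf7l2 (chr19:55741820-55933654, plus strand) measured 2.64, 2.46, 2.47 and 2.63 FPKM in HFHG and 1.37, 1.81, 1.51 and 2.06 in LG. The LG libraries varied more, but all lay below HFHG (log2 fold change 0.58 ± 0.11, adjusted p = 0.0006). Tcf7l1, mostly a repressor, averaged 1.88 ± 0.0626 and 1.47 ± 0.0799 FPKM (log2 fold change 0.34 ± 0.08, adjusted p = 0.003). Lef1 and Tcf7 averaged 0.0899 FPKM or less, with overlapping groups.

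In all, 32 members did not reach the filter. Their mean was higher in HFHG for 21 and lower for 11, and 61.3% of the 7591 genes below the filter had a higher mean in HFHG. For 7 of the 32 the groups did not overlap (Axin2, Dkk1, Ror1, Wnt3 and Wnt10b higher in HFHG, Fzd6 and Fzd9 lower), beside 9.21% of all genes below the filter. In each of these the exact permutation p was 0.0286, uncorrected for the 32 comparisons made. At these library totals 14 of the 58 genes had 0 reads in at least 1 library.

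Other components of the pathway were followed through 6 lists of genes, whose members outside the 58 numbered 106 in the table, 84 of them tested. Of these 46 were higher in HFHG and 17 lower (54.8% and 20.2%, beside 34.0% and 30.8% of all tested genes), with a median log2 fold change of 0.20 beside 0.02. In a further list of secreted or membrane Wnt regulators, 6 of 7 tested genes rose, beside 34.0% of all tested genes. The list was drawn up as antagonists, but Cthrc1 and Bambi in it are not antagonists only. Draxin, 1 of the 6, was above the filter in HFHG alone, and 4 to 6 were called over the alternatives. Igfbp4, a binding protein that also blocks Lrp6, averaged 82.1 ± 1.89 FPKM in HFHG and 32.0 ± 1.48 in LG (log2 fold change 1.36 ± 0.04), Draxin 0.710 ± 0.167 and 0.17 ± 0.0498 (1.58 ± 0.20) and Cthrc1 2.06 ± 0.391 and 1.17 ± 0.101 (0.75 ± 0.13). Wls, the carrier that takes Wnt proteins to the cell surface, fell from 61.8 ± 1.38 to 47.9 ± 1.18 FPKM (log2 fold change -0.37 ± 0.03), while Porcn, which attaches their lipid, did not pass (adjusted p = 0.78).

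Of the beta-catenin target genes, 13 of 21 tested were higher and 5 lower (34.0% and 30.8% over all tested genes). Ccn5, a matricellular protein, averaged 401 ± 6.87 and 111 ± 5.45 FPKM (log2 fold change 1.85 ± 0.03), Nkd2, an inhibitor of Dishevelled, 43.2 ± 0.781 and 15.4 ± 0.813 (1.49 ± 0.04), and Tbx3, a transcription factor, 4.22 ± 0.291 and 1.89 ± 0.241 (1.12 ± 0.09). Myc, chosen after its value was seen as the gene of this list with the largest fall, went from 20.4 ± 0.974 FPKM in LG to 9.92 ± 0.994 in HFHG (log2 fold change -1.04 ± 0.06). The targets thus included genes that moved in opposite directions.

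In the beta-catenin cascade 14 of 29 tested genes were higher and 6 lower (34.0% and 30.8% over all tested genes), and the log2 fold changes ran from -0.39 to 0.63. Dvl3, which relays the signal from Frizzled, rose by a log2 fold change of 0.63 ± 0.05, Bcl9l, a beta-catenin cofactor, by 0.63 ± 0.04 and the corepressor Tle2 by 0.61 ± 0.10. Ctnnb1, which encodes beta-catenin itself and was also chosen after its value was seen, averaged 194 ± 1.54 FPKM in HFHG and 236 ± 3.93 in LG (log2 fold change -0.28 ± 0.02). The calls of these named genes passed an adjusted p-value of 0.05 in limma.

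**Figure D5:**
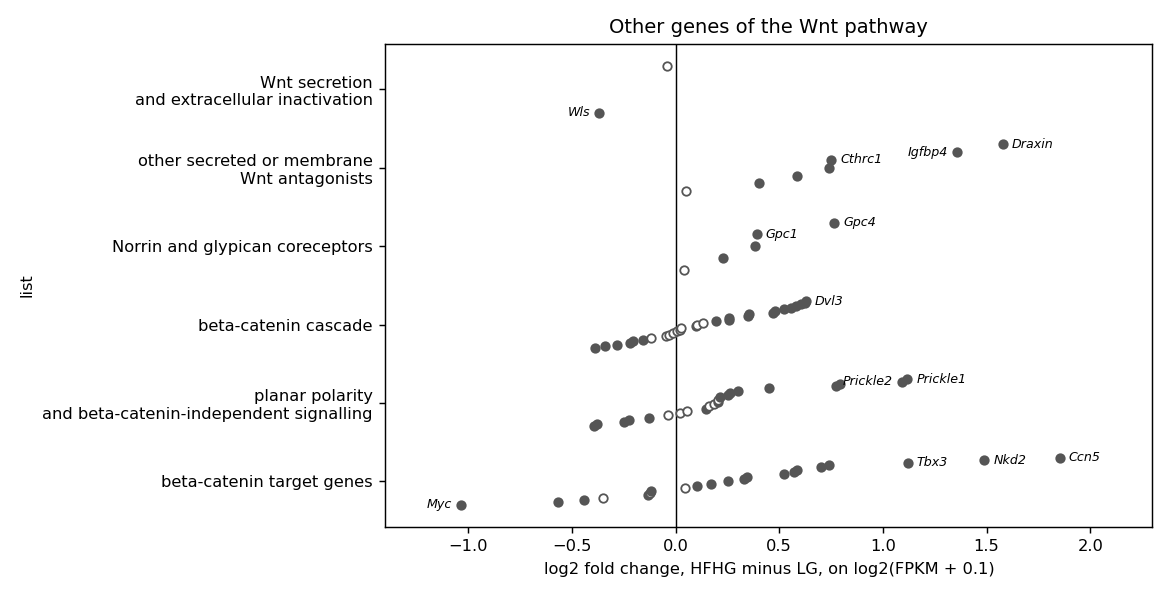
Log2 fold change (HFHG minus LG, log2(FPKM + 0.1) scale) of each tested gene of the 6 lists of other pathway genes, 1 row of points per list. Filled points passed an adjusted p-value of 0.05 (limma) and open points did not; Apcdd1 and Bambi are in 2 lists. Ccn5 lies farthest to the right at 1.85 and Myc farthest to the left at -1.04.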

How the data were processed

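mRNA of primary mouse TSCs was sequenced after 4 days in HFHG medium (glucose at 25.5 mM plus 300 µM of palmitic acid) or LG medium (glucose at 5.5 mM plus DMSO), with 4 libraries per group named by the sample labels and doses from the study's text. Library preparation used a stranded mRNA kit. The authors deposited FPKM values per gene and library, unpooled. Per the labels, HISAT2 2.1.0 and the mm10 build were used, and the counting program and annotation are not given in the sources used here, so how reads of overlapping or near-identical genes were shared is unknown. FPKM depends on gene length and on the library total, so a few abundant genes can move all others.

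Whole reads were recovered from the FPKM by a search for the library totals and gene lengths that make each value a whole number (within 0.001 reads), which held for 19301 of 19301 genes. The p-values named below compare the groups against the spread between libraries, and whether those came from separate mice is not given. limma 3.58.1 in R 4.3.3 (trend) was run on log2(FPKM + 0.1) of the 11710 genes with at least 0.5 FPKM in at least 4 of 8 libraries, and p-values were adjusted by Benjamini-Hochberg over those genes. A fold change on this scale understates the change of low genes. Genes below the filter were compared by an exact two-sided permutation test over 70 arrangements (smallest p 0.0286) in Python 3.11.15 with scipy 1.17.1. Scripts were tested on simulated data. Intervals cover counting error only. Gene positions are from GENCODE M21 (GRCm38), and promoters from RefSeq.

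The genes, lists and tests were chosen with earlier results of these data known. Values in all libraries are given for tested members with an adjusted p-value below 0.05 and an absolute log2 fold change of at least 0.58 (at most 15) and for the most abundant member of each role, and of each list the 3 genes with the largest change are named or counted. Other genes, and the search for TATAAA, were chosen after values or sequences were seen. Results were recomputed with other pseudocounts (1 and 0.01), without a filter or with one at 1 FPKM, with libraries rescaled to equal sums, by median ratios or by quantiles, with a replicate block, with robust eBayes, with voom on the recovered reads, with each library left out, and, added after seeing the data, a filter on the mean FPKM.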

Additional observations from a re-analysis of the deposited data

Results flagged for a closer look

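In 3 of the 52 groups of 4 libraries examined for the 26 tested genes, 1 library lay apart from the other 3 by Dixon's test at its 95% level, and chance alone marks about 1 in 20 groups. Fzd2 measured 28.0 FPKM in HFHG replicate 2 against 26.6 to 26.8 in the other 3 HFHG libraries. Fzd8 measured 6.66 FPKM in the same library against 5.86 to 5.90. Sfrp2 measured 23.1 FPKM in HFHG replicate 4 against 23.6 in each of the other 3. Without the library concerned, the call of each gene was the same.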

How the results depend on the processing

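The count of members higher in HFHG was 22 under each alternative with a filter and 29 without one. The count lower was 1, but 0 after rescaling to the same sum and 2 without a filter or after quantile normalization. Leaving out each library in turn gave 22 members higher and 1 lower each time and 7 to 9 past 2-fold, with 9 without HFHG replicate 1 or LG replicate 4 and 7 without LG replicate 2. A pseudocount of 1 gave 6 past 2-fold, and voom on the recovered reads gave 22, 1 and 8. The other pathway genes gave 43 to 45 higher and 16 to 18 lower when a library was left out. Beside 46 higher in the main fit, 42 were higher after median-ratio scaling or with a filter at 1 FPKM. After rescaling to the same sum, 51 were higher. Among single members, Fzd5 changed sign after quantile normalization (log2 fold change -0.0061), and so did Wnt9a there (-0.034) and after median-ratio scaling (-0.0011), and none of these passed the test. Znrf3 passed after quantile normalization and Axin1 did not pass after rescaling to the same sum. The causes were not tested. With the replicate number as a block, 22 members were higher, 1 was lower and 8 were past 2-fold, and the same-numbered libraries did not deviate together (correlations -0.074 to -0.0056), so the numbers were not used as pairs. The median of all tested genes moved by less than 0.1 on the log2 scale under each scaling. At library totals of 34308108 to 37362725 reads behind the FPKM, differences of members below the filter rest on few reads.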

Other observations

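Genes that bind Norrin or carry heparan sulfate at the cell surface, and genes of planar cell polarity, were also followed. Of the Norrin and glypican list, 4 of 5 tested genes were higher in HFHG, where 34.0% of all tested genes were, and 2 to 4 were over the alternatives. Gpc2 lost its call after quantile normalization (adjusted p = 0.11), and Gpc6 (adjusted p = 0.048) lost it under 13 alternatives, with an adjusted p of up to 0.41. Gpc4 averaged 75.3 ± 1.26 FPKM in HFHG and 44.3 ± 1.30 in LG (SD, n = 4 each), which gave a log2 fold change of 0.77 ± 0.03, and Gpc1 averaged 59.0 ± 0.728 and 45 ± 0.628 (0.39 ± 0.03). Gpc2 was lower in level, at 1.07 ± 0.135 and 0.790 ± 0.0573 (0.39 ± 0.12). The ligand Norrin itself (Ndp) was at 0.0178 FPKM or less.

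Of the planar polarity and beta-catenin-independent list, 11 of 22 tested genes were higher and 5 lower, beside 34.0% and 30.8% of all tested genes. Prickle1 and Prickle2, core polarity proteins, averaged 2.56 ± 0.189 and 3.37 ± 0.111 FPKM in HFHG and 1.13 ± 0.117 and 1.53 ± 0.0970 in LG, with log2 fold changes of 1.12 ± 0.10 and 1.09 ± 0.07. Each gene named here as higher passed an adjusted p-value of 0.05 in limma.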
